A study of Mus musculus with 4 samples.

Results

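Replication-dependent histone genes encode the bulk of the histone protein laid down on newly copied DNA. They were taken here by symbol, as the genes named H1f1 to H1f6 and those named H2ac, H2bc, H3c or H4c followed by a number, and 65 of the 55203 genes in the deposited files met this rule. They held 71 of the 141738 transcripts. By type there were 6 H1, 18 H2A, 17 H2B, 12 H3 and 12 H4 genes. A gene's level is its FPKM (sequenced fragments relative to transcript length and to the library's mapped fragments), summed over its transcripts.

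The 4 RNA-seq libraries were made from intestine of wild-type adult male C57BL/6NTac mice, aged 8 to 12 weeks and kept in specific-pathogen-free (SPF) condition. By the labels, 2 libraries were treated with the ribonuclease inhibitor ribonucleoside vanadyl complex (RVC) at 4 mM and 2 were fresh frozen. A single protocol, a rinse of distal colon with RVC, is attached to all of them, while the tissue label reads ileum, so neither the handling of the frozen tissue nor the gut segment is settled by the labels. Ribosomal RNA was depleted enzymatically rather than selecting poly(A) RNA. Nothing in the labels says that libraries of a group came from separate animals, and p-values then measure only the spread between these libraries. As the labels number the libraries as batches 1 to 4, effects of batch cannot be told apart from those of RVC.

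Most messenger RNAs end in a poly(A) tail, but replication-dependent histone mRNAs normally end just after a short stem-loop in their 3′ untranslated region. The stem-loop is bound by SLBP, which serves in cleavage of the new transcript, in its translation and in its decay when DNA synthesis stops. These genes carry no introns as a rule, sit in clusters, and are transcribed mainly in S phase, which in intestinal epithelium is passed by the dividing cells of the crypt. H2A, H2B, H3 and H4 build the nucleosome core, and H1 binds the DNA that links nucleosomes.

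The stem-loop was read from the GRCm39 genome sequence as a 16-nt hairpin, with a perfect 6-bp stem opening with GG and a 4-nt loop opening with TTT, within 150 nt after the stop codon. It was found in 60 of the 64 members with an annotated stop codon (93.75%), and in 15 of 21601 other protein-coding genes (0.0694%). Of those 15, H2ac25, H2ax, H2bc26, H2bc27, H2bw2, H3f4 and H4c16 are histone genes that the name rule or the files' symbols left out. The 60 hairpins came in 6 sequences, and one gene for each is shown so that the bases that differ can be seen, DNA letters 5′ to 3′, with the stem in capitals and 5 flanking bases on either side.
H1f2: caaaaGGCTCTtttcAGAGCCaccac
H2bc3: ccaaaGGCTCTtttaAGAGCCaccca
H2ac20: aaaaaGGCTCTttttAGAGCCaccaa
H4c8: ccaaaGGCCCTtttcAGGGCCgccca
H4c9: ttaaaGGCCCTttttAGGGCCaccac
H4c2: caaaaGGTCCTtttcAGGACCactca

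The hairpin of H1f2 was shared by 39 members of types H1, H2A, H2B and H3, and that of H2bc3 by 9 members of the same types. The H2ac20 form occurred once. All 11 hairpins found in H4 genes had one of the last 3 forms, which no other type carried: 7 had the form of H4c8, 2 that of H4c9 and 2 that of H4c2. The H4c8 hairpin lies at chr13:23715628-23715643 and that of H1f2 at chr13:23923495-23923510, both on the plus strand of GRCm39. Hairpins began 22 to 59 bases after the stop codon (median 31). No match to this definition was found for H2ac22, H2bc21, H3c8 and H4c1. H2ac22 held a near match whose outermost stem bases were G and T, the 1 pair that was not Watson-Crick. H2ac14 has no annotated stop codon, being a pseudogene in the GENCODE M39 annotation.

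Upstream sequence was available from RefSeq (GRCm38.p6) for 58 of the 65 members, and the 250 bases before the start were searched on both strands for 3 motifs. For the TATA box the letters were TATAAA. For the CCAAT box they were the 5 of its name. For the octamer, a site known from H2B promoters, they were ATTTGCAT. None of the 3 contains another. The letters TATAAA were present in 28 of 58 members (48.3%) and in 14.3% of 26967 other genes. In the members these matches began 10 to 250 bases before the start (median 43), on either strand. No match was required to stand at the place of a TATA box. The CCAAT box was present in 48 of 58 (82.8%) against 37.4%, and the octamer in 13 of 58 (22.4%) against 1.77%. All 17 H2A and all 14 H2B promoters held CCAAT, as did 6 of 6 H1 and 8 of 10 H3 promoters, against 3 of 11 H4 promoters. The octamer occurred in 6 of 17 H2A and 7 of 14 H2B promoters and in none of the 27 promoters of the other types. Every H2A octamer lay on the strand opposite to its gene. Many H2A and H2B genes stand head to head, with as few as 175 bases between them, so the 250-base windows of such a pair can overlap. The same site can then be counted for both genes, and these counts are not of independent promoters. The promoters of the pair of most abundant members that held one of these motifs are shown with the motif in capitals. They were placed by an exact match in GRCm39, H1f2 at chr13:23922540-23922789 on the plus strand and H4c18 at chr13:22016368-22016617 on the minus strand.
H1f2: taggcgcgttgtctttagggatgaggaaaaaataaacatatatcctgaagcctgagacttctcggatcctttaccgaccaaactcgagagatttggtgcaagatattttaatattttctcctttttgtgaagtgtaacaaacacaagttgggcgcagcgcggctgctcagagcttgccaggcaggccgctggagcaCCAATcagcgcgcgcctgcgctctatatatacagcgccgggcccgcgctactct
H4c18: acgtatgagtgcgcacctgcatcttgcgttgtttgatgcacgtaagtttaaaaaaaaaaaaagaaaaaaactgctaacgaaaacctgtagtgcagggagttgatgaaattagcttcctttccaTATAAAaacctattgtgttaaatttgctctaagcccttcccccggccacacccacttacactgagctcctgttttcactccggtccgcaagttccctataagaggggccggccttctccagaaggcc

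The CCAAT box of H1f2 begins 54 bases before the start, and the TATAAA match of H4c18 begins 127 bases before it. Variants of TATAAA, such as tatatata in H1f2 and tataag in H4c18, were not searched for. H4c8, the most abundant member, held none of the 3 motifs in this window. These matches are letters in a sequence and were not tested as binding sites.

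The members lie in 3 groups along the genome. On chromosome 13, 24 genes span 328 kb (chr13:21899933-22227846) and 31 genes span 404 kb (chr13:23715220-24118834), and on chromosome 3, 10 genes span 50.3 kb (chr3:96127181-96177448). The second chromosome 13 group gave 58.8% of the summed member FPKM, the first 33.1% and the chromosome 3 group 8.07%. All 3 groups mix types, except that H1 is absent from chromosome 3. Neighbouring H2A and H2B genes stood head to head in 13 pairs, with 175 to 305 bases between their models. Each of those 13 stretches held 2 to 5 CCAAT boxes, 6 of them held an octamer, and 7 held the letters TATAAA. Members of a pair were not equally abundant: in the H2ac6 and H2bc4 pair the mean levels were 5.93 and 105 FPKM, and in the H2ac11 and H2bc11 pair 23.6 and 27.2 FPKM.

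**Figure D1:**
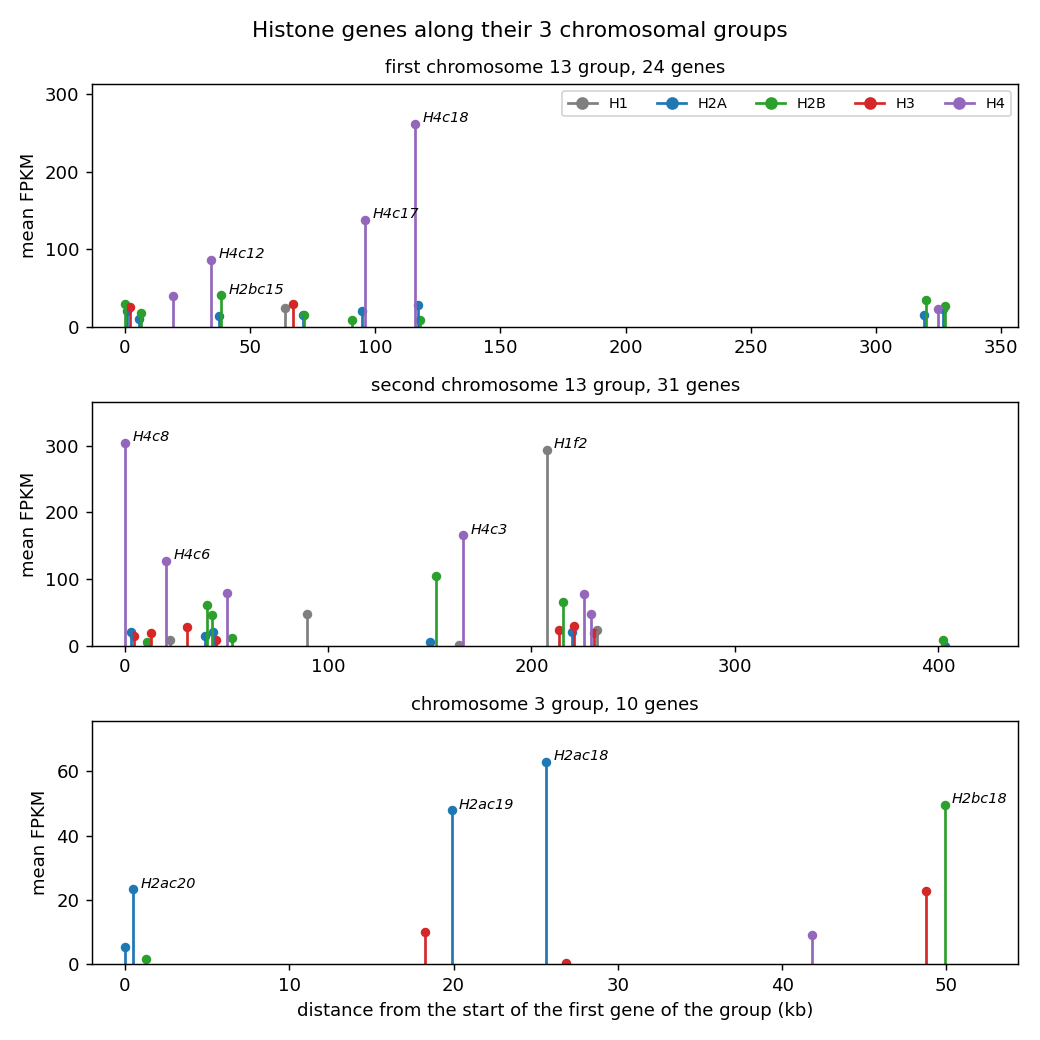
Mean FPKM over the 4 libraries (vertical lines and points, coloured by histone type) of the 65 genes, by distance in kb from the start of the first gene in each chromosomal group. H4 genes and H1f2 make the tallest lines on chromosome 13, up to 304 FPKM, and the axis of the chromosome 3 panel ends below 80.

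H4 genes carried 47.0% of the summed member FPKM, H2B genes 18.6%, H1 genes 13.7%, H2A genes 12.7% and H3 genes 8.02%. All 65 together came to 3251 and 3189 FPKM in the RVC libraries and 2453 and 2660 FPKM in the fresh frozen libraries. The median member stood at 23.1 FPKM, and 62 members reached a mean of 1 FPKM. Gene models were short, 312 to 7425 nt with a median of 530 nt, and 37 of 65 were under 600 nt. Since Cufflinks divides by a length reduced by the fragment length, FPKM of such short models depends on that correction. When FPKM was multiplied by model length, the share of H4 was 34.6%, that of H1 was 30.4% and that of H2B was 18.4%. H1 and H2B thus changed places, while in this product H4 stayed first and H2A (9.22%) and H3 (7.30%) stayed last. The product used the full model length and not the reduced one, so it does not undo the division for short models. It cannot show whether H4 would stay first by fragments. The order of the types and the size of the shares hold on the per-length scale only.

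The most abundant H4 gene, H4c8 (ENSMUSG00000060981, chr13:23715220-23715689), measured 379 and 328 FPKM in RVC and 252 and 259.5 FPKM in fresh frozen. H4c18 measured 329, 273, 219.5 and 223 FPKM in the same order, and H4c3 measured 204, 176, 137 and 144 FPKM. Both RVC libraries lay above both fresh frozen libraries for each of these 3 genes. H4c17 (137 FPKM on average), H4c6 (128 FPKM), H4c12 (85.8 FPKM), H4c4 (78.6 FPKM) and H4c2 (77.5 FPKM) came next, and H4 genes made up 8 of the 10 members above 75 FPKM. The lowest H4 gene was H4c14 on chromosome 3, at 8.998 FPKM.

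Among linker histones, H1f2 (ENSMUSG00000036181, chr13:23922791-23924350) stood apart at 298 and 331 FPKM in RVC and 301 and 244 FPKM in fresh frozen. Fresh frozen 1 lay 3.12 FPKM above RVC 1 as deposited and 1.74 FPKM below it after the libraries were scaled, so the order of these libraries rests on the scaling. H1f4 followed at 47.7, 49.3, 49.2 and 42.6 FPKM, and H1f5 at 21.9, 29.5, 17.5 and 29.9 FPKM, so in both genes the groups overlapped. H1f1 and H1f3 averaged 23.1 and 7.69 FPKM. H1f6, the testis-specific H1t, was at 0.370 FPKM on average.

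H2B levels ran from 1.595 FPKM (H2bc21) to 105 FPKM (H2bc4). H2bc4 measured 102, 114, 97.2 and 106 FPKM, RVC libraries first, and H2bc3 measured 66.2, 73.5, 54.7 and 66.8 FPKM. In both genes fresh frozen 2 exceeded RVC 1. H2bc8 measured 65.4 and 67.5 FPKM in RVC and 51.8 and 60.5 FPKM in fresh frozen, without overlap. H2bc4 is 1 of 5 members with a model of more than 1 exon, its annotated end lying 8246 bases past the hairpin along the genome, introns included. The other 4 were H2bc6, H2bc22, H2bc23 and H2bc24, and 63 of the 71 transcripts had a single exon.

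H2A and H3 genes were lower and more even. Both leading H2A genes lie on chromosome 3: H2ac18 measured 81.2 and 69.5 FPKM in RVC and 50.7 and 51.0 FPKM in fresh frozen, and H2ac19 measured 60.0, 54.1, 38.5 and 38.96 FPKM. H2ac24, the highest H2A gene of chromosome 13, measured 28.8, 34.1, 21.1 and 30.3 FPKM, with fresh frozen 2 between the RVC libraries. The highest H3 genes were H3c2 at 30.3, 37.2, 21.2 and 29.3 FPKM, H3c11 at 35.4, 34.4, 24.7 and 23.5 FPKM, and H3c6 at 31.2, 30.3, 24.7 and 24.3 FPKM. None of these 3 genes overlapped between groups. H2ac1, a testis H2A gene, was listed at 0 in every library, although its head-to-head partner H2bc1, also known from testis, was listed at 8.48 FPKM. Of 6 spermatogenic marker genes, 4 were listed at 0 in every library and Sycp3 alone reached 1 FPKM, at 0.844, 1.39, 3.59 and 3.09 FPKM.

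**Figure D2:**
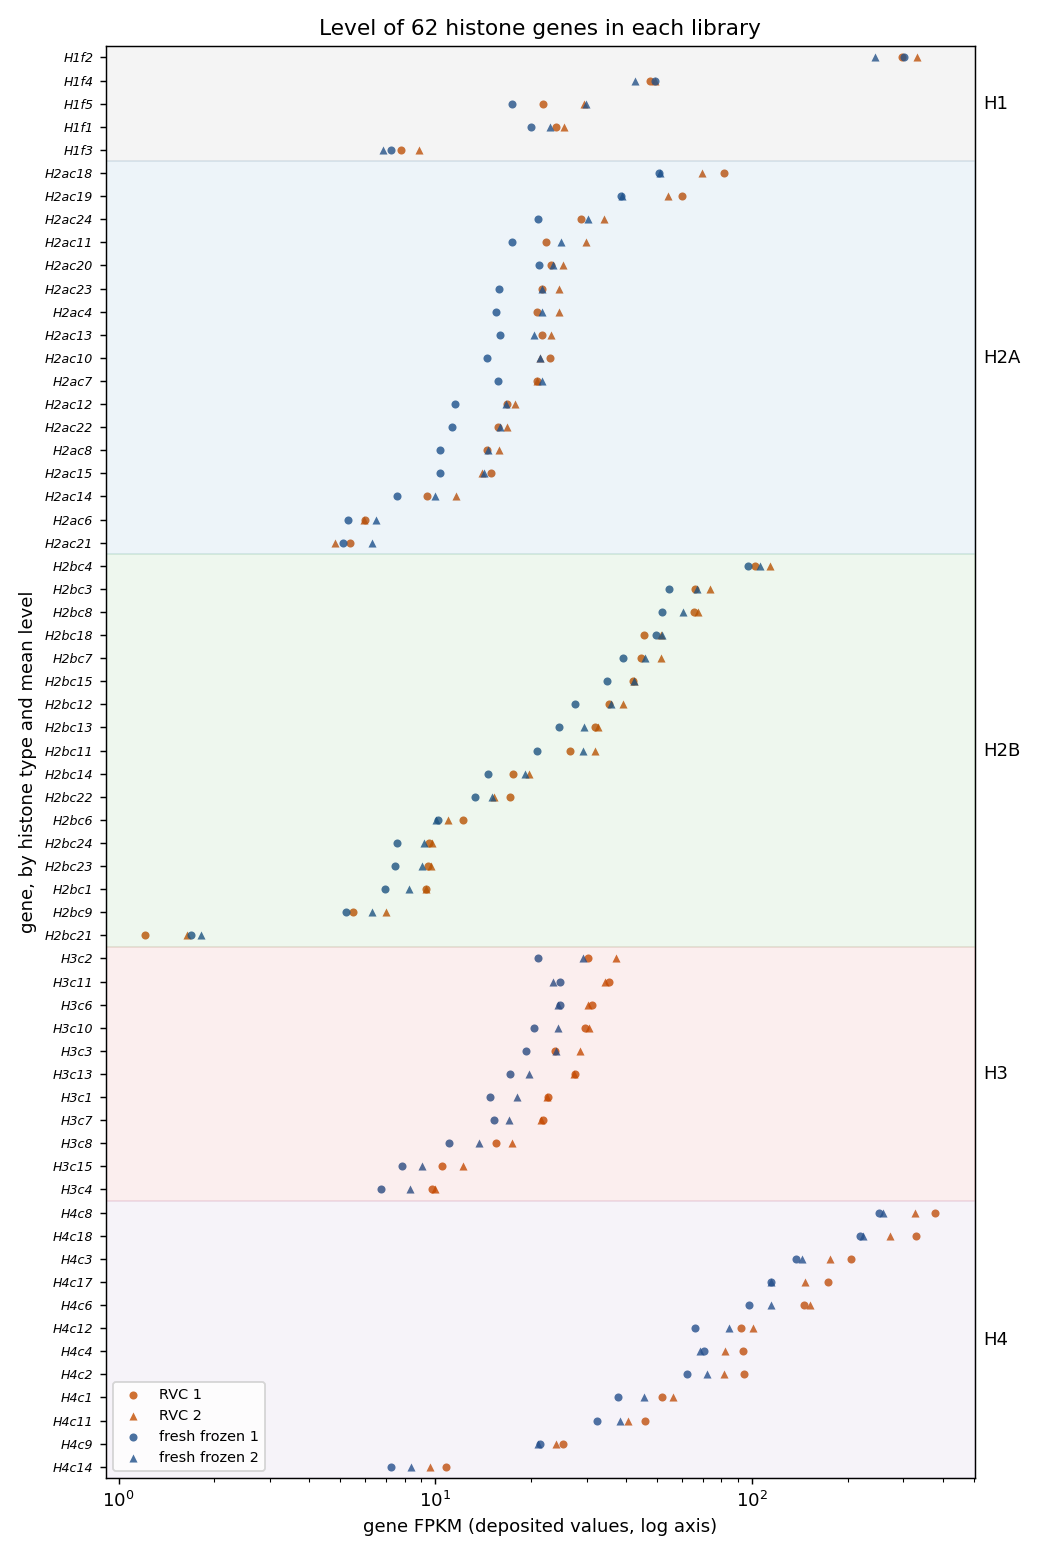
FPKM of the 62 members with a mean of at least 1 (log axis), 1 row a gene, by type and mean level, with 1 point for each of the 4 libraries. In the H4 rows both RVC points lie right of both fresh frozen points, and in many H2A rows the fresh frozen 1 point stands alone on the left.

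Near-identical copies limit what can be said of single genes. A window of 100 nt was counted as repeated where the same bases occur elsewhere in the genome, on either strand. For H2bc4 and the most abundant model of H2bc6, windows were taken along the genome with introns included (3.10% and 1.02% repeated). Those percentages are not those of the spliced models. H2ac19, H2ac23 and H2ac24 were repeated in 100% of their windows, H2ac18 in 95.9%, and each shared windows with 14 other members. H4c18 and H4c17 were repeated in 89.1% and 88.1%, and H4c8 in 38.5%. Only 8 members had no repeated window: H1f1, H1f5, H1f6, H2ac1, H2bc18, H2bc21, H4c4 and H4c14. For H2bc1, 27.4% of windows were repeated somewhere in the genome, and it shared windows with 11 other members. How much of its level came from reads of those members was not tested. How reads with several matches were divided is not given in the sources used here beyond the default settings, and levels of genes with many repeated windows are uncertain.

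Overlapping genes add to this, since no strand setting is stated. H1f4 shares 528 bases with a transcript of H2bc6 on the same strand, and H4c8 shares 461 bases with the antisense Gm11335, which was below 0.389 FPKM in all libraries. H3c14 lies within Gm20634 on the same strand over 1825 bases. H3c14 was listed at 0.000693, 0.516, 0.000133 and 0.883 FPKM, while Gm20634 was at 8.36, 8.20, 6.76 and 6.75 FPKM, and how reads were divided between them was not tested.

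Levels also differed with the place where the model ends. In 16 members the model stops before the end of the hairpin, in 22 it ends 0 to 100 nt past it, and in 22 it ends further away, up to 8246 bases. These distances are along the genome and include introns. The 8246 bases belong to H2bc4, whose model is 1156 nt long in 2 exons. Whether the hairpin lies in an exon of the spliced models was not tested. Median levels were 23.0, 29.0 and 12.4 FPKM in these 3 sets. H1f3, whose model continues 4884 bases past its hairpin, averaged 7.69 FPKM over 7425 nt. The ranges of the sets overlapped, since H1f2, H4c3 and H2bc4 are among the members whose models end further away. Where reads end along these models was not tested.

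The comparison of RVC with fresh frozen libraries has no question of its own in the labels. The summed member FPKM was 1.26-fold higher in RVC (log2 ratio 0.34, pooled SD 0.076 on that scale, n = 2 each). Both RVC sums lay above both fresh frozen sums, with an exact two-sided permutation p of 0.333, the smallest that 2 against 2 libraries allow. In bulk tissue, fewer cells of a type and less RNA per cell cannot be told apart.

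By type, H4 sums were 1644 and 1470 FPKM in RVC and 1118 and 1194 FPKM in fresh frozen (log2 ratio 0.43). H3 sums were 258 and 272 FPKM against 183 and 212 FPKM (0.43), and H2A sums were 407 and 414 FPKM against 288 and 360.1 FPKM (0.35). For H4, H3 and H2A the groups did not overlap. H1 sums were 399.6 and 444 FPKM against 396 and 347 FPKM (0.19), and they did not overlap either, by a margin of 3.83 FPKM. H2B sums were 542 and 588 FPKM against 467 and 547 FPKM (0.16), and here fresh frozen 2 lay above RVC 1. The exact permutation p was 0.333 for H1, H2A, H3 and H4 and 0.667 for H2B, 5 comparisons in which 0.05 could not be reached. Without fresh frozen 1 the H2B log2 ratio was 0.035 and that of H2A was 0.18, while those of H3 and H4 were 0.31 and 0.37.

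**Figure D3:**
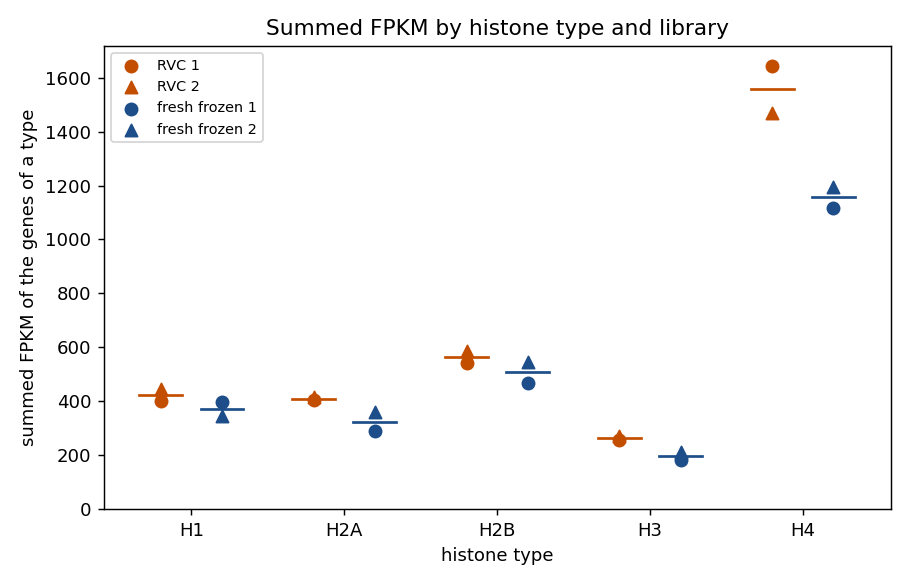
Summed FPKM of the genes of each histone type in each library, with horizontal lines at the mean of the 2 libraries of a group. H4 reaches 1644 FPKM in RVC 1 and 1118 FPKM in fresh frozen 1, and H2B is the type in which a fresh frozen point lies above an RVC point.

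Types were compared within a library as well, which removes anything that scales all histone genes of that library alike. The log2 ratio of the H3 sum to the H2B sum was -1.07 and -1.11 in RVC and -1.35 and -1.37 in fresh frozen, a difference of 0.27 with 0.24 to 0.30 between single libraries. The spread within groups was 0.039 and 0.015. For H4 against H2B the difference was also 0.27, between 0.064 and 0.47. For H4 against H3 the difference was near 0, between -0.18 and 0.18. Of 10 such ratios 4 did not overlap between groups, the ratios of H3 to H1, H2B to H2A, H3 to H2B and H4 to H2B, each with an exact permutation p of 0.333. For H3 to H1 the margin was 0.0037. The ratios share their sums and are not independent, and the levels of 53.2% of all genes tested did not overlap.

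In the fit across 13775 genes, 62 members could be tested, and H1f6, H2ac1 and H3c14 fell under the mean of 1 scaled FPKM. None of the 62 had an adjusted p under 0.05 (limma with Benjamini-Hochberg adjustment over all genes), in a comparison that called 0.0363% of all genes, and the smallest adjusted p of a member was 0.129. At an unadjusted p under 0.05 there were 22 members, all higher in RVC, which 9.38% of all genes were (18.4% in either direction, 8.99% lower). Of the 62, 59 had a log2 fold change above 0 (51.0% of all genes) and 35 had both RVC libraries above both fresh frozen libraries (26.5% of all genes), with 1 below (26.6%), where 53.2% of all genes did not overlap. The median log2 fold change, on the log2(scaled FPKM + 1) scale, was 0.28 over the members and 0.0062 over all genes tested.

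The H3 and H4 genes stood highest. All 12 H4 genes had both RVC libraries above both fresh frozen ones, 10 of them at an unadjusted p under 0.05, with log2 fold changes of 0.21 to 0.50 (median 0.38). Of 11 H3 genes tested, 10 did not overlap and 10 were at an unadjusted p under 0.05 (0.27 to 0.56, median 0.41), H3c3 being the gene that overlapped. Over all genes, 26.5% had both RVC libraries above both fresh frozen ones, and 9.38% were higher at an unadjusted p under 0.05. Of 17 H2A genes, 16 were higher and 3 did not overlap (median 0.29), and 2 of them, H2ac18 and H2ac19, were at an unadjusted p under 0.05. For H2A the share without overlap was thus below that of all genes, and the share at that p was near it. Of 17 H2B genes, 15 were higher, 7 lay above and 1 below without overlap (median 0.19), and none was at an unadjusted p under 0.05. All 5 H1 genes were higher, 3 without overlap (median 0.20), again with none at that p.

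The members with the smallest p were H2ac18 (log2 fold change 0.56, SE 0.12), H2ac19 (0.55, SE 0.11), H3c11 (0.52, SE 0.10) and H3c13 (0.56, SE 0.12), each with an adjusted p of 0.129. H3c13, the chromosome 3 member of this set that encodes an H3, measured 27.5 and 27.4 FPKM in RVC and 17.2 and 19.7 FPKM in fresh frozen. H2ac18, H2ac19 and H3c13 lie within 30 kb of one another, and nearly all windows of both H2A genes are repeated in other members, so those genes are not independent. Of the 6 tested members with no repeated window, 4 were higher (median 0.17), and 3 had both RVC libraries above both fresh frozen ones (26.5% of all genes). The 2 H2B genes among them had a median of -0.12. The 2 H4 genes among them were H4c4 and H4c14. H4c4 measured 93.4 and 82.1 FPKM in RVC and 70.3 and 68.4 FPKM in fresh frozen (0.34, SE 0.11). H4c14 measured 10.8 and 9.59 FPKM against 7.26 and 8.36 FPKM (0.35, SE 0.13). In both H4 genes the groups did not overlap, and the part of copies in the result was not tested.

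Over the 21 tested members with under 20% of windows repeated, 18 were higher and the median was 0.18, and over the 41 others 41 were higher with a median of 0.30. H2bc4 and H2bc6 are among the 21 by windows that include introns, and their place by spliced model was not tested. The 3 members with lower values in RVC all lie on chromosome 3 and had few or no repeated windows: H2bc21 (log2 fold change -0.18), H2ac21 (-0.13) and H2bc18 (-0.057). H2bc21 measured 1.21 and 1.65 FPKM in RVC and 1.69 and 1.82 FPKM in fresh frozen, the one member with both RVC libraries below. It is also the H2B gene in which no hairpin was found. All 53 tested members on chromosome 13 had a log2 fold change above 0.

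**Figure D4:**
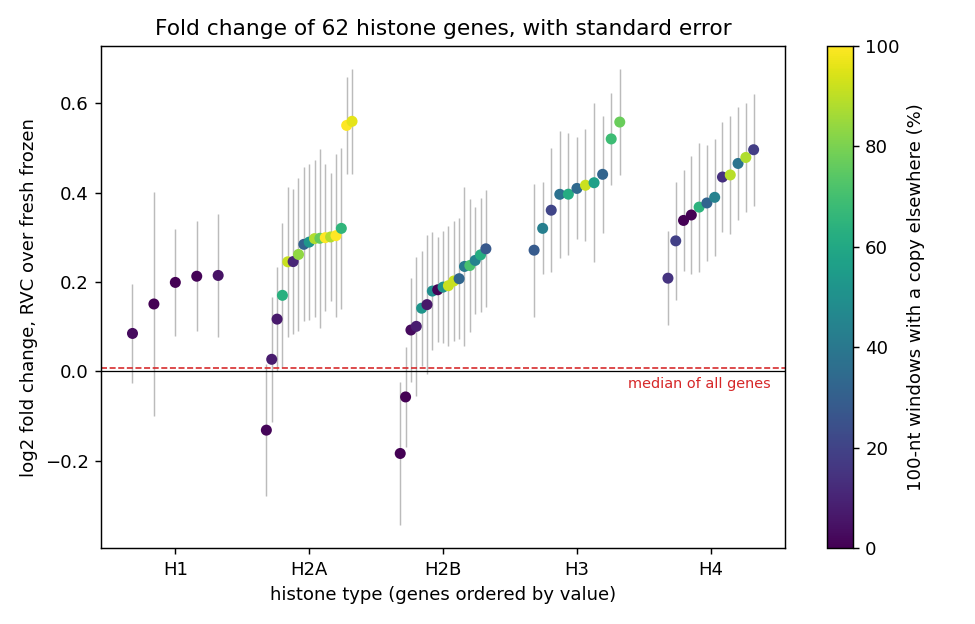
Log2 fold change of RVC over fresh frozen for the 62 members tested, by type and ordered by value, with bars of 1 standard error (limma, 2 libraries a group) and colour for the percentage of 100-nt windows repeated in the genome. H3 and H4 points lie between 0.21 and 0.56, and the 3 points under 0 belong to H2A and H2B genes with almost no repeated windows. For H2bc4 and H2bc6 the windows include introns.

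The size of the difference over all members depended on which fresh frozen library was kept. Fresh frozen 1 was the lowest library for most members: against fresh frozen 2 its median difference was -0.27, with 5 of 62 members higher, 0 of 17 H2A and 0 of 17 H2B genes among them. The RVC libraries differed from each other by a median of -0.038 (RVC 1 minus RVC 2), which pools types that differed in sign. Over H4 genes this difference was 0.19, where fresh frozen 1 minus fresh frozen 2 was -0.15. Over the other types the RVC difference was -0.14 (H1) to -0.018 (H3). Without fresh frozen 1 the median over members was 0.12 with 52 of 62 higher, and without fresh frozen 2 it was 0.46 with 59 higher. At an unadjusted p under 0.05 there were 13 of 62 members without fresh frozen 1 (15.8% of all genes in the same fit), 47 without fresh frozen 2 (18.4%), 12 without RVC 1 (9.13%) and 14 without RVC 2 (13.3%). Against fresh frozen 2 alone, RVC 1 was higher for 5 of 17 H2A, 7 of 17 H2B, 10 of 11 H3 and 12 of 12 H4 genes. Fresh frozen 1 was also the shallowest library, at 72.6% of the relative depth of fresh frozen 2, with the RVC libraries at 81.8% and 79.8%. Small noncoding RNAs took 38.4% of its summed FPKM, against 43.2% in fresh frozen 2 and 49.6% and 47.3% in RVC. The part of depth and of these RNAs in the result was not tested.

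Of the 71 member transcripts, 64 were tested among 24188 transcripts, and none had an adjusted p under 0.05 (0.00413% of all transcripts did), the smallest being 0.227. Since 60 of the 65 members have 1 transcript, the transcript values mostly repeat those of the genes. H2bc6 was divided between 3 models, at means of 3.88, 5.38 and 1.603 FPKM.

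Histone genes outside the name rule include the replacement variants, which are made through the cell cycle and whose mRNAs mostly carry poly(A) tails. H3f3a and H3f3b, which both encode H3.3, summed to 411 and 466 FPKM in RVC and 498 and 429.5 FPKM in fresh frozen, more than the 12 H3 members together. The ratio of the H3 members to H3.3 was 0.628 and 0.584 in RVC and 0.368 and 0.494 in fresh frozen. The H2A members exceeded the H2A.Z genes H2az1 and H2az2 in every library, by 3.01-fold and 2.82-fold in RVC and 1.81-fold and 2.56-fold in fresh frozen. The H1 members exceeded H1f0, the linker histone of resting cells, by 6.60-fold and 5.24-fold in RVC and by 4.64-fold and 4.15-fold in fresh frozen. Of 13 tested genes of this list, 7 were higher and 6 lower, the median log2 fold change was 0.022, and 0 passed the threshold. The list is not of replacement variants alone, since it holds genes in which the hairpin was found. These are H2ax, H2bw2, H3f4, H2bu2, H2aw and H4f16, the last 3 being named H2bc27, H2ac25 and H4c16 above. H2bu2, H4f16, H2ax and H2aw had log2 fold changes of 0.71, 0.22, 0.063 and 0.022, and H2bw2 and H3f4 were not tested. H2bu2 had the smallest p (2.02, 1.89, 0.823 and 0.797 FPKM, adjusted p 0.129), and Cenpa, the centromeric H3, measured 2.75 and 2.75 FPKM in RVC and 3.88 and 3.94 FPKM in fresh frozen.

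None of the genes tested that make and destroy histone mRNA passed the threshold. Of 20 tested genes of histone transcription and 3′ processing, 6 were higher and 14 lower (median -0.13), and 6 had an unadjusted p under 0.05 in either direction (18.4% of all genes). Slbp, the stem-loop binding protein, measured 11.8 and 10.9 FPKM in RVC and 14.5 and 13.5 FPKM in fresh frozen. Casp8ap2, a factor of the histone locus body, measured 2.78, 3.11, 4.12 and 4.42 FPKM (log2 fold change -0.42), and Npat, the transcription factor of the same body, measured 2.67, 3.32, 3.48 and 3.54 FPKM. Cpsf1 was higher in RVC at 5.82, 6.25, 3.63 and 4.62 FPKM (0.47), while the Sm protein genes Snrpe and Snrpb, the most abundant of the list, had values of -0.16 and 0.12. Slbp and Npat were named after their values were seen.

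Among 14 genes of histone mRNA decay, 5 were higher and 9 lower (median -0.032), with 0 past the threshold. Lsm4, of the decay ring that binds histone mRNA ends, measured 26.1 and 27.8 FPKM against 21.7 and 19.8 FPKM (log2 fold change 0.37). Upf1, the helicase recruited by SLBP, measured 18.7 and 16.4 FPKM against 13.4 and 14.4 FPKM (0.32). Tut7, a uridylating enzyme and the most abundant of the list, had a value of -0.088. Histone chaperones gave 4 higher and 13 lower of 17 tested (median -0.15, 0 past the threshold), among them Hat1, the acetyltransferase of new H4, at 6.48, 6.85, 9.82 and 8.97 FPKM (-0.43), Rbbp4 at 24.4, 28.5, 33.1 and 31.0 FPKM (-0.27) and Rbbp7 with -0.13.

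The S-phase list divided evenly. Of 23 genes tested, 12 were higher and 11 lower, with a median of 0.055 and 0 past the threshold. Pcna, the sliding clamp of DNA polymerase, measured 23.4, 27.8, 24.9 and 21.2 FPKM (log2 fold change 0.15), and Tyms, which makes thymidylate, 7.58, 10.7, 10.5 and 10.4 FPKM (-0.19). Ccna2, the cyclin of S phase and G2, was at 3.10 and 3.09 FPKM in RVC and 5.65 and 6.16 FPKM in fresh frozen (-0.75, adjusted p 0.127), and Mki67, a mark of cycling cells, was at 5.35 and 6.51 FPKM against 9.12 and 10.1 FPKM (-0.62, adjusted p 0.130). Pold1, the catalytic subunit of DNA polymerase delta, was at 1.71 and 2.02 FPKM in RVC and 0.565 and 1.03 FPKM in fresh frozen (0.68, adjusted p 0.156), so single genes of the list differed in both directions. Pold1 was named after its values were seen.

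Marker genes of other cells differed in value between the groups as well. All 10 smooth muscle markers were higher in RVC without overlap (median 0.81), as were 26.5% of all genes, and their sum was 1136 to 1692 FPKM in RVC and 701 to 751 FPKM in fresh frozen. Desmin (Des) was at 135 and 172 FPKM against 79.5 and 85.4 FPKM. The 5 tested plasma cell markers of 8 were all higher (median 0.62), and all 8 summed to 880 to 980.5 FPKM in RVC and 369 to 572 FPKM in fresh frozen. Of 9 tested stem and transit-amplifying markers, 8 were lower (median -0.43). All 12 of that list summed to 42.9 to 45.2 FPKM in RVC and 55.8 to 64.6 FPKM in fresh frozen. The list includes Mki67, a mark of cycling cells of any kind. Mki67 and Top2a are also in the S-phase list, so these lists are not separate. Epithelial markers were near level, 8 of 10 higher with a median of 0.085 and sums of 5667 to 5809 FPKM against 4917 to 6117 FPKM. B cell and germinal centre markers summed to 6.29 to 6.89 FPKM in RVC and 5.25 to 7.99 FPKM in fresh frozen with 2 of 12 tested, and T cell markers stayed between 3.27 and 4.59 FPKM with none tested. No gene of these marker lists passed the threshold, none except 4 of the spermatogenic markers was at 0 in every library, and their part in the histone difference was not tested.

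**Figure D5:**
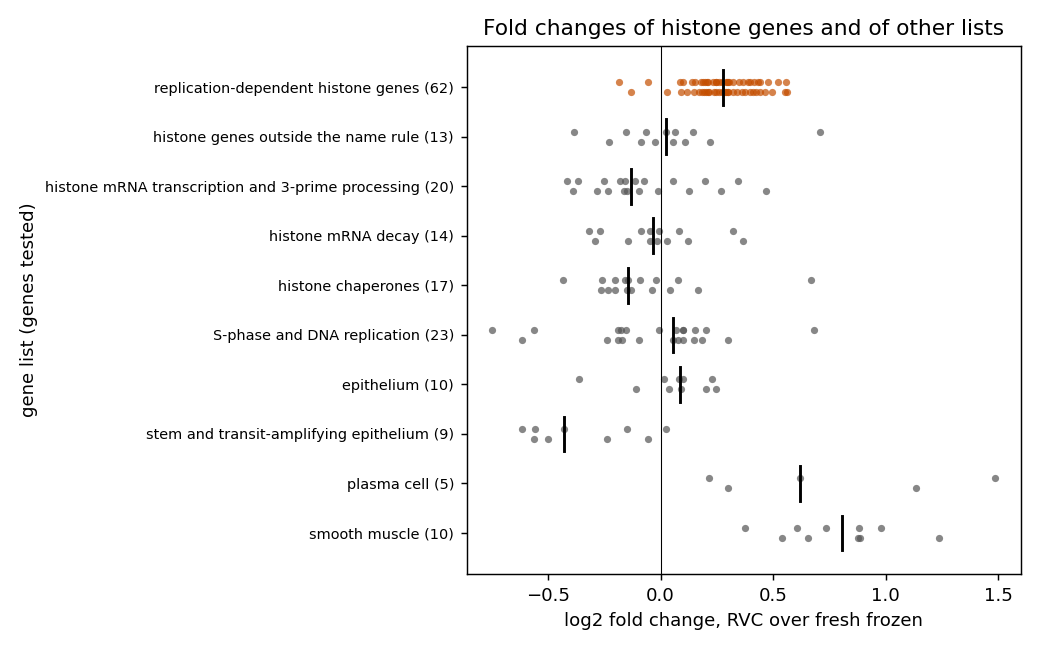
Log2 fold change of RVC over fresh frozen for each tested gene (points) of the histone members and of 9 other lists, with the list median as a vertical line and the number tested in brackets. The members' median is 0.28, those of histone mRNA processing genes and chaperones are -0.13 and -0.15, and those of smooth muscle and stem markers are 0.81 and -0.43.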

How the data were processed

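RNA-seq was measured in 4 libraries, 2 a group, from rRNA-depleted RNA read as 150-bp pairs, per the labels' protocols. Reads were processed with TopHat2 2.1.1 and Cufflinks 2.2.1 on GRCm39, per the submitters' processing notes. The annotation release and strand setting are not given in the sources used here. The authors deposited FPKM per transcript with FPKM confidence bounds, coverage (a signal per base) and transcript length, per the file headers. Depth as counts is unknown. Relative depth of a library is its median of deposited coverage over FPKM, and the deposited bounds of the members' transcripts lay a median of 11.5% to 14.8% from the value.

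Gene FPKM was the sum over transcripts. Libraries were scaled by median ratio, and log2(scaled FPKM + 1) was tested with limma 3.58.1 in R 4.3.3 (trend, two-sided, Benjamini-Hochberg over all genes, threshold 0.05). Genes were tested with a mean of at least 1 scaled FPKM, a transcript of at least 300 nt and status OK throughout. The fit was tested on simulated data. Sums were compared by exact permutation. Whether groups overlap was read on the scaled values. Sequences came from GRCm39 with GENCODE M39 and from RefSeq promoters (GRCm38.p6). Members that lie within 500 kb formed one chromosomal group. Tables and figures used pandas 2.3.3 and matplotlib 3.10.9.

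The members and the lists were chosen with earlier results of these data known. Named were the 3 most abundant members of each type, the 4 of smallest p that were higher and the 4 that were lower without overlap (1 was found), and for each other list the 2 most abundant genes and the 2 of smallest p. Any other gene named with values was picked with its values known. The alternatives tried were another pseudocount, scaling, filters, transcript choice, a replicate block, no trend, leaving out each library, and, added after seeing the data, a crossed block and members with few repeated windows.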

Additional observations from a re-analysis of the deposited data

How the results depend on the processing

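No member passed the threshold under any of the 16 alternatives of the gene fit, and the smallest adjusted p of a named member under any of them was 0.0988 (limma, with the replicate block). The median log2 fold change of the members was 0.27 to 0.30 under the other pseudocount, scaling, filters and transcript choices, 0.12 to 0.46 when 1 library was left out, 0.46 being the value without fresh frozen 2. The log2 ratio of the summed FPKM was 0.27 to 0.41 with a library left out. Of 254 values of 17 named members under alternatives, 3 changed sign: H1f4 without fresh frozen 2 and H1f5 without RVC 2 (-0.051) and without fresh frozen 1. With 1 library left out H1f4 ranged from -0.0022 to 0.17 and H1f5 from -0.24 to 0.54. The cause was not tested.

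The count of 0 members is a floor and says nothing about stability: at an unadjusted p under 0.05 there were 22 members, and 12 to 47 with a library left out. Over all genes, against 5 genes past the threshold there were 0 without a filter on low values, 2 at a mean of at least 5 FPKM, 0 with no trend, 2 for the most abundant transcript, 0 for transcripts of at least 300 nt, and 13 to 25 with a library left out. The replicate block gave 123 genes, and the crossed replicate block, chosen after seeing the data, 12. Same-numbered libraries did not deviate together (Pearson r -0.13 across 13775 genes). As this rests on 1 difference between libraries in each group, it cannot settle whether the numbers pair them. Against 1 transcript there were 0 without a filter, 6 at a mean of at least 5 FPKM, 7 with no length minimum and 0 with any library left out. A group of 2 reduced to 1 library was assumed to vary like the other group. With 2 libraries a group, spread limits every comparison.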
